A study of Mus musculus with 2 samples.

Results

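Peaks of trimethylated histone H3 lysine 4 (H3K4me3) at the ends of long noncoding RNA (lncRNA) genes were described in mouse prospermatogonia. A peak was taken where it overlapped the 1 kb either side of an annotated end of a lncRNA gene and lay over 5 kb from any end of a protein-coding gene, on chromosomes 1 to 19. By this rule of position alone, 4275 of the 135064 peaks in the list were members, 3.49% of the 122479 autosomal peaks. They covered 3.23 Mb and reached 3416 lncRNA genes. Of the members, 4080 reached 1 lncRNA gene and 195 reached 2 or more.

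The series holds 1 H3K4me3 library and 1 rabbit IgG library, each from 130000 freshly sorted Oct-GFP+ prospermatogonia at E17.5. No genotype, strain or treatment is named for these cells. They were profiled by CUT&RUN, in which antibody-tethered nuclease cuts chromatin around its target and the DNA set free is sequenced. Only the H3K4me3 peak list was analysed, the IgG library was not analysed here, and there were no replicates.

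H3K4me3 is laid down on nucleosomes at promoters that are active or poised, and it covers CpG-rich promoters in particular. LncRNAs are transcripts without a long open reading frame, and many of their genes are known from single clones or computed models. Prospermatogonia are the fetal male germ cells that stop dividing before birth and later found the spermatogonial lineage.

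The starts of 8 lncRNA genes are shown to let the range of sequence under these peaks be seen. Each is 300 bases of the RefSeq promoter table (GRCm38.p6, the same build as mm10), printed in the direction of transcription, with the annotated start at base 251 and each CpG in capitals. The first 4 are the starts with the highest fold in each of 4 classes of CpG content, among starts whose 300 bases lay wholly inside a peak. Platr10 has a high fold with 1 CpG, Snhg5 is a start with 36 CpGs, and Miat lies under the widest member peak. Nkx2-2os has 17 CpGs and no peak at all within 5 kb.
C920009B18Rik, chr10:22306532-22306831, plus strand: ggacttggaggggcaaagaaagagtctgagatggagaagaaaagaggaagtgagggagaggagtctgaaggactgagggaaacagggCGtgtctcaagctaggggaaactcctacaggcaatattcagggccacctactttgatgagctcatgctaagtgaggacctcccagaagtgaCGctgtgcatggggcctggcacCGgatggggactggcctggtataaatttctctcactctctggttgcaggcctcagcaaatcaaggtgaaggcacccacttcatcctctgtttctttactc
Gm29154, chr9:103960091-103960390, minus strand: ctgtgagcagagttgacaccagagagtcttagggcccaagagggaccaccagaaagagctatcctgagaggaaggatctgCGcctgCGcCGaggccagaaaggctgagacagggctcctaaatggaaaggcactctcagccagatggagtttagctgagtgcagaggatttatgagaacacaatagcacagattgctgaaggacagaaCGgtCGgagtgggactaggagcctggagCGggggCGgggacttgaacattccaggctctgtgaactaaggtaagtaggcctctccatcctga
Gm53063, chr13:59073665-59073964, minus strand: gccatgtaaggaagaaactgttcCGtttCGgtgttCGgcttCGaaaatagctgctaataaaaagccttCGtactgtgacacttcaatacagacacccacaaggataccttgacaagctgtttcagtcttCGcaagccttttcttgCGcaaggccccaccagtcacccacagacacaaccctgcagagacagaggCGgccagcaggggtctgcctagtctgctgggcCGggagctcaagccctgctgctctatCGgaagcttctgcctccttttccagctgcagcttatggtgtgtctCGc
Mir100hg, chr9:41376276-41376575, plus strand: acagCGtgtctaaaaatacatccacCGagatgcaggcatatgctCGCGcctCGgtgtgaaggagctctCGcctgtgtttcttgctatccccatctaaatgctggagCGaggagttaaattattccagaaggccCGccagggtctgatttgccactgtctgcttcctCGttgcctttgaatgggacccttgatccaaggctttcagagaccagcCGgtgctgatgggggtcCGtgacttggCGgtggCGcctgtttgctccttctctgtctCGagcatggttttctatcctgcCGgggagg
Platr10, chr3:75655682-75655981, minus strand: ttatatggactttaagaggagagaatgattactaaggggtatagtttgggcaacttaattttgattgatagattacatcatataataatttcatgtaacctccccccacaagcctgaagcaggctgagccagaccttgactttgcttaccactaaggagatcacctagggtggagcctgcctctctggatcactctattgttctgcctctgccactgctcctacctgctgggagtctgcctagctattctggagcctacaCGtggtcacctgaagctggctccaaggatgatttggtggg
Snhg5, chr9:88522848-88523147, minus strand: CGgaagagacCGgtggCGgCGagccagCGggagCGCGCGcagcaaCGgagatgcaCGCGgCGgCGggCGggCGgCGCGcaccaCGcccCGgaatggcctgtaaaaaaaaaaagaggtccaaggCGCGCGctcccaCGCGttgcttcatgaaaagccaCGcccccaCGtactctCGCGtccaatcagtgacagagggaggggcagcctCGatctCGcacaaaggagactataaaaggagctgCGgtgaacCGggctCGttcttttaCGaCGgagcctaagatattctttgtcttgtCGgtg
Miat, chr5:112228899-112229198, minus strand: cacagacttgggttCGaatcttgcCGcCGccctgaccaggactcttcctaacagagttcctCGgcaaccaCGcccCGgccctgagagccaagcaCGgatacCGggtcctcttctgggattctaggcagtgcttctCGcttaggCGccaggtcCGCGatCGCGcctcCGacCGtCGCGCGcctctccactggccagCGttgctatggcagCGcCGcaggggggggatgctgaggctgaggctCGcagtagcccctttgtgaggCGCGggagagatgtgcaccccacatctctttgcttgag
Nkx2-2os, chr2:147183833-147184132, plus strand: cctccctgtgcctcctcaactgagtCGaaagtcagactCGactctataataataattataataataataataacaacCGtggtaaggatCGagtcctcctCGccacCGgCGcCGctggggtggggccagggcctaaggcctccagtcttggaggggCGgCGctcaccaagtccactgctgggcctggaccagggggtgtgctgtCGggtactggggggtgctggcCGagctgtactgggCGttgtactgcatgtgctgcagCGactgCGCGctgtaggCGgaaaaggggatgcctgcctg

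The 4 starts of highest fold in their CpG class had folds of 12.4 to 14.9, so a strong peak was found in each class. C920009B18Rik, with 3 CpGs and a CpG observed over expected ratio of 0.151, lay under a peak of 954 bp with 54 fragments at the summit and a fold of 13.4 (95% interval 10.1 to 17.4). Mir100hg, a host gene of the miR-100 cluster, had 15 CpGs, a ratio of 0.662 and a fold of 12.4 (9.30 to 16.3). Gm29154 had 7 CpGs, 61 fragments and a fold of 13.7, and Gm53063, inside the neurotrophin receptor gene Ntrk2, had 11 and a fold of 14.9 (11.3 to 19.3). Snhg5, a host of small nucleolar RNAs, had the most CpGs of the 8, a ratio of 1.26, and a lower fold of 6.68 (4.71 to 9.21). Nkx2-2os starts inside Nkx2-2, a transcription factor gene of the ventral neural tube, and its nearest peak was 5048 bp away. The fold is the pileup of fragments at the summit over the peak caller's local background, each plus 1, and the intervals are exact Poisson intervals of the pileup that cover counting error only.

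Facts of the library bear on all these values. The depth of the library is unknown here, and summit pileups, recovered as whole numbers from the list, were 10 to 135 among members. Of the marker genes of the labelled cells, all 5 germ cell genes had a peak within 1 kb of an end (Ddx4, Dazl, Dppa4, Tex101 and Dnd1). So did 4 of 4 Sertoli, 1 of 3 endothelial, 2 of 3 blood and 0 of 4 Leydig cell genes, where 74.4% of all autosomal protein-coding genes have such a peak. The highest folds were 4.09 to 7.64 at the germ cell genes, 3.33 to 8.32 at the Sertoli genes, 8.63 at the endothelial gene Tek, and 11.1 and 3.88 at the globin genes Hbb-bt and Hba-a1. The part that cells other than germ cells had in the peaks was not tested.

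LncRNA gene ends carried the mark more often than the same windows moved along the chromosome, and less often than protein-coding gene ends. An end was called isolated where it lay over 6 kb from any protein-coding gene end, and a gene was called marked where a member peak met the window of an isolated end. Of 10530 lncRNA genes with an isolated end, 3334 (31.7%, 95% Wilson interval 30.8 to 32.6) were marked. Among the 8128 genes whose windows were still isolated after being moved by 100 kb, 31.1% (30.1 to 32.2) were marked at the real ends and 14.6% (13.9 to 15.4) at the moved ones, a ratio of 2.13. Of all autosomal protein-coding genes, 74.4% had a peak within 1 kb of an end, counting either end of every gene, isolated or not. A closer pair is that of starts. Of isolated lncRNA starts 28.1% were marked, against 65.4% (64.5 to 66.3) of protein-coding starts with no end of another protein-coding gene within 6 kb. Most marked lncRNA genes had 1 peak (2467 genes), 723 had 2, 144 had 3 or more, and the most was 5. Across chromosomes the marked share ran from 25.1% on chromosome 14 to 39.7% on chromosome 10.

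The mark sat at the start of lncRNA genes rather than at the 3′ end. Strand was known for 9291 of 12408 autosomal lncRNA genes, from the promoter table, and 71.9% (70.3 to 73.4) of the 3277 members at such genes reached a start. Of 6858 isolated starts, 1928 (28.1%, 27.1 to 29.2) were marked, against 8.99% (8.28 to 9.76) after moving. Of 7281 isolated 3′ ends, 963 (13.2%, 12.5 to 14.0) were marked, against 8.81% (8.13 to 9.55) after moving. Ends of genes with no known strand lay between, at 18.6% (17.6 to 19.8) against 8.70%.

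The same difference was seen within genes. Among 4376 genes of 5 kb or longer with both ends isolated, the start was marked in 26.9% (25.6 to 28.3) and the 3′ end in 11.5% (10.6 to 12.5). The start alone was marked in 1019 genes, the 3′ end alone in 346, both in 159 and neither in 2852. So 65.2% of these longer genes had no peak at either annotated end.

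Coverage by peaks rose to a single narrow maximum just inside the start. For genes of 10 kb or longer with ends over 10 kb from protein-coding gene ends, 18.8% of 3088 starts were covered at 100 bp downstream and 18.3% at the start itself. Coverage was 10.2% at 500 bp upstream and 14.2% at 500 bp downstream, so it reached further into the gene than away from it. It fell to 2.49% at 5 kb upstream and 2.1% at 5 kb downstream, beside a mean of 2.68% at moved positions. At 3429 3′ ends the highest coverage was 3.65%, at 500 bp upstream of that end, with a mean of 2.53% and a highest value of 3.18% over moved positions.

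**Figure D1:**
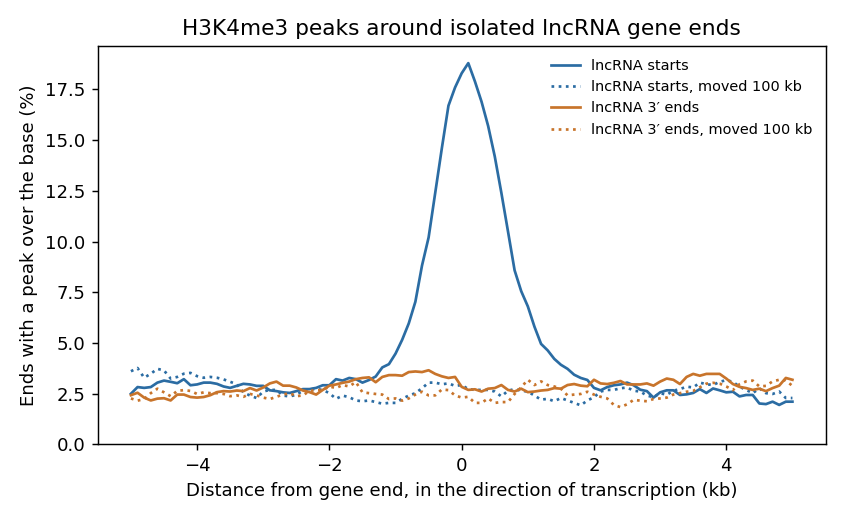
Share of isolated lncRNA starts (blue, 3088) and 3′ ends (orange, 3429) with an H3K4me3 peak over each base, against distance in the direction of transcription, with the same ends moved by 100 kb as dotted lines. Starts reach 18.8% at 100 bp downstream, and 3′ ends stay at or below 3.65%.

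Summits lay slightly downstream of the annotated start. For the 1337 marked starts of genes of 5 kb or longer, the nearest summit had a median position of 73 bp downstream (51 to 103), with quartiles at -212 bp and 337 bp, negative values being upstream. Of these summits, 56.6% (53.9 to 59.3) were downstream and 69.9% were within 500 bp of the start.

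Member peaks were intermediate in width and pileup between peaks at protein-coding gene ends and distal peaks, which have their summit over 5 kb from any gene end. Their median width was 729 bp (707 to 748, range 158 to 2446), against 880 bp (869 to 891) at protein-coding gene ends and 542 bp (538 to 546) in distal peaks. The median summit pileup was 33 fragments (32 to 33), against 39 and 24. These medians differ beyond their counting intervals, but with 1 library no spread between replicates could be set beside them.

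The fold ordered the peak classes in another way. Median fold of members was 6.46 (6.40 to 6.60, range 1.71 to 17.4), close to the 6.42 of distal peaks and above the 5.37 (5.33 to 5.40) of protein-coding gene ends. The background in the denominator also differed, with medians of 3.81 fragments at members, 6.34 at protein-coding gene ends and 2.48 at distal peaks. A fold of at least 10 was reached by 341 members (7.98%, 7.20 to 8.83), 7.92% of distal peaks, 1.63% of peaks at protein-coding gene ends and 6.37% of all autosomal peaks. Beside protein-coding gene ends, members thus had a lower pileup over a lower background and a higher fold.

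**Figure D2:**
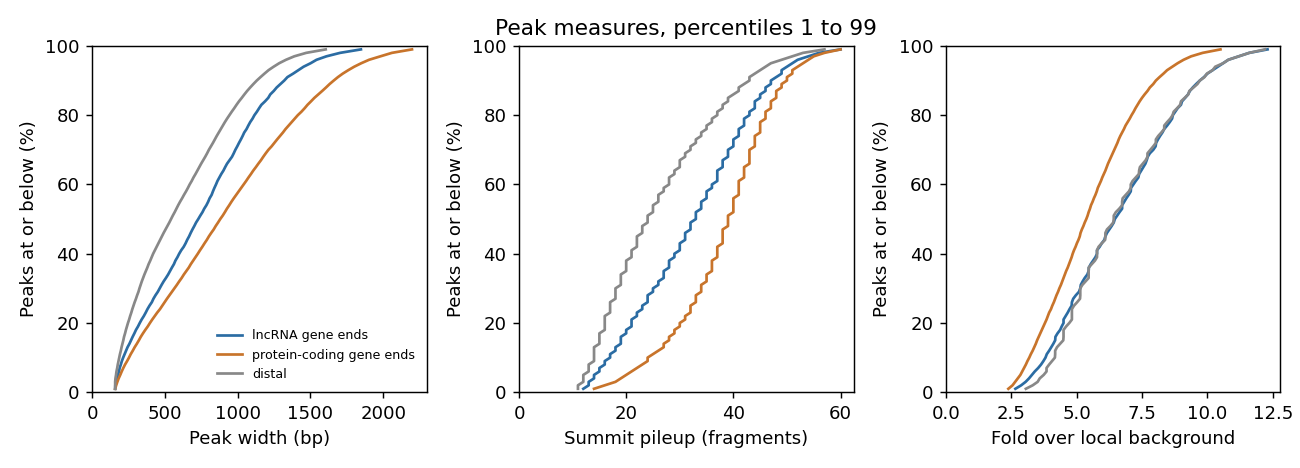
Percentiles 1 to 99 of peak width, summit pileup and fold for members (blue), peaks at protein-coding gene ends (orange) and distal peaks (grey). The blue curve lies between the others for width and pileup, with medians of 729 bp and 33 fragments, and near the distal curve for fold from the median upward, with medians of 6.46 and 6.42. At percentile 5 the member fold, 3.29, lies between 3.74 in distal peaks and 2.85 at protein-coding gene ends.

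Members lay in wide domains as often as autosomal peaks in general. When peaks up to 1000 bp apart were merged, 442 members (10.3%, 9.46 to 11.3) lay in the widest 5% of domains, those of at least 2002 bp, the same share as the 10.3% of all autosomal peaks. The share was 31.1% at protein-coding gene ends and 3.39% in distal peaks. Members that reached a start alone were in wide domains in 11.1% (9.81 to 12.5), and those at a 3′ end alone in 7.17% (5.67 to 9.02). The same groups had median widths of 755 bp and 672 bp and median pileups of 34 and 30 fragments, while their median folds were both 6.47. Peaks just inside the distance limit, 137 at 5 to 6 kb from a protein-coding gene end, had a median width of 713 bp and a fold of 5.70. Those just outside it, 151 at 4 to 5 kb, had 610 bp and 4.67.

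CpG content of the promoter went with the share of starts marked. The measure is the number of CpGs in the 300 bases over the number that the content of C and G would give. It was available for 6641 isolated starts, and the median was 0.340 (0.329 to 0.353) at marked and 0.183 (0.178 to 0.188) at unmarked starts. Medians of 6 CpGs and 50% GC at marked starts stood against 3 CpGs and 46.0% GC at unmarked ones.

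The share marked climbed through the 4 CpG classes. It was 13.9% (422 of 3039 starts, 12.7 to 15.2) below a ratio of 0.2 and 30.1% (724 of 2409, 28.3 to 31.9) from 0.2 to 0.4. From 0.4 to 0.6 it was 52.7% (420 of 797, 49.2 to 56.1), and at 0.6 and over 78.0% (309 of 396, 73.7 to 81.8). Moved positions stayed between 8.52% and 9.21% in all 4 classes. The class with the lowest share held the most starts, and 87 starts of the richest class had no peak within 1 kb.

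Protein-coding starts over 6 kb from the ends of other protein-coding genes followed the same order at a higher level. The CpG measure was available for 6708 of 11012 such starts. Those 6708 were marked in 58.8%, against 65.4% of all 11012. Their shares were 15.4% (14 to 17), 42.6% (39.9 to 45.3), 86.8% (84.1 to 89.1) and 98.9% (98.4 to 99.2). In the lowest class the intervals of lncRNA and protein-coding starts overlapped. From 0.4 to 0.6 they were furthest apart, at 52.7% against 86.8%.

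**Figure D3:**
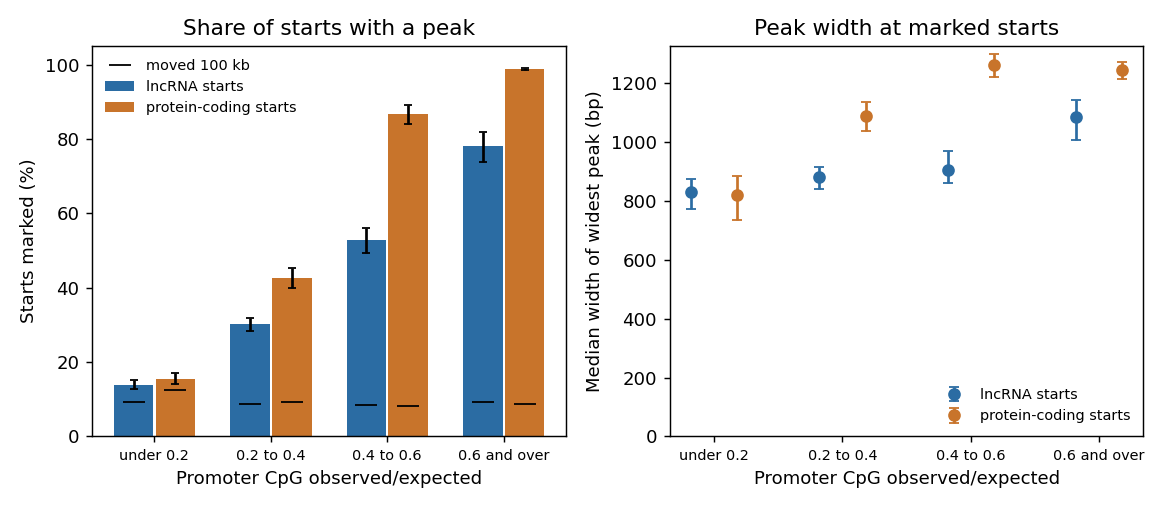
Left, share of isolated starts with a peak within 1 kb, by CpG observed over expected ratio, for lncRNA (blue) and protein-coding genes (orange), with 95% Wilson intervals and black dashes for windows moved by 100 kb. Right, median width of the widest peak at marked starts with 95% order-statistic intervals. LncRNA shares climb from 13.9% to 78.0% and widths from 830 bp to 1086 bp.

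Peak width and pileup at marked lncRNA starts also rose with CpG content, while fold did not. The median width of the widest peak was 830 bp (774 to 873), 882 bp (839 to 916), 904 bp (859 to 970) and 1086 bp (1006 to 1144) through the 4 classes. Median pileups were 33, 35, 37 and 41 fragments. Median folds were 7.39, 7.39, 7.33 and 6.44 (6.19 to 6.79). Over the 1875 marked starts with sequence, Spearman's rho of the ratio was 0.182 with width, 0.204 with pileup and -0.107 with fold, as a description across starts of 1 library that share depth and, in part, base composition. At protein-coding starts the widths were 820 bp, 1087 bp, 1262 bp and 1244 bp, so from a ratio of 0.2 upward the lncRNA peaks were the narrower.

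In steps of 100 bp, the highest coverage was reached at 100 bp downstream in each class, and its height differed. From 0.4 to 0.6 coverage was equal at the start itself, and at 0.6 and over it was equal at 200 bp downstream. At 100 bp downstream, coverage was 6.42%, 19.4%, 41.3% and 58.7% from the lowest to the highest class. At 4 to 5 kb away it averaged 2.98%, 2.43%, 2.77% and 2.48%. Even the CpG-poorest starts, 2790 in number, thus showed a maximum at the start above their own flanks.

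**Figure D4:**
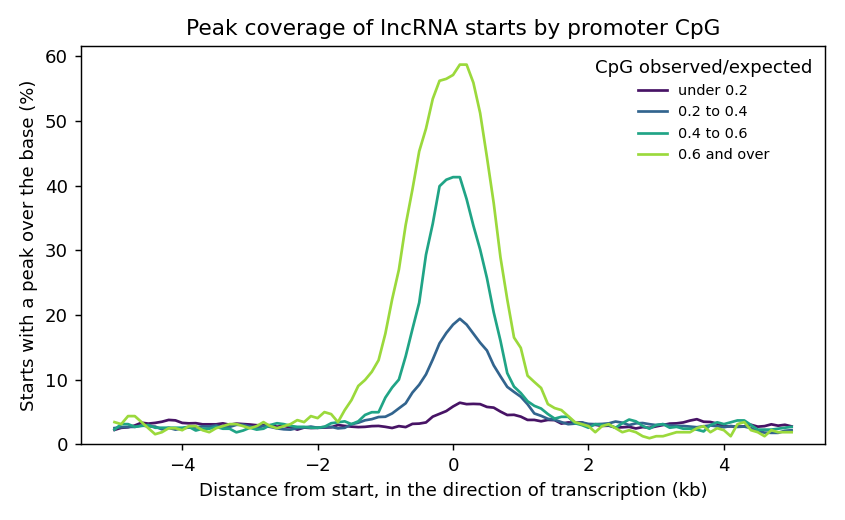
Share of lncRNA starts with a peak over each base, by distance in the direction of transcription, in 4 classes of promoter CpG observed over expected ratio. All 4 curves reach their highest value at 100 bp downstream, from 6.42% in the lowest class to 58.7% in the highest. From a ratio of 0.4 upward a neighbouring position 100 bp away ties with it. At 4 to 5 kb away the curves average 2.43% to 2.98%.

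Short motifs were counted on both strands of the 300 bases, in 1875 marked and 4766 unmarked starts, beside all 32851 promoters of the table. A match is a description of letters and does not show that a factor binds. The GC box (GGGCGG), which Sp-family factors recognise, was in 20.1% (18.3 to 21.9) of marked and 4.87% (4.29 to 5.52) of unmarked starts, and in 35.7% of all promoters. An ETS-family sequence (CCGGAAGT) was in 3.36% (2.63 to 4.28) against 0.315% (0.191 to 0.519), with 3.89% of all promoters. An NRF1-type sequence (GCGCATGC) was in 2.19% (1.62 to 2.95) against 0.231% (0.129 to 0.413), with 2.71% of all promoters. An E-box (CACGTG) was in 7.63% (6.51 to 8.92) against 4.57% (4.02 to 5.20), and in 7.15% of all promoters. The cAMP response element (TGACGTCA), bound by CREB and the germ cell factor CREM, was in 1.17% (0.776 to 1.77) against 0.587% (0.407 to 0.848), with 1.79% of all promoters. These 5 motifs hold a CpG, and none of the 8 motifs searched contains another.

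The difference in GC boxes was also present within CpG classes. From the lowest to the highest class, 6.40%, 15.9%, 21.0% and 47.2% of marked starts held one, against 2.71%, 6.94%, 8.49% and 13.8% of unmarked starts. The ETS-family sequence was in 1.66%, 2.62%, 4.52% and 5.83% of marked starts, against 0.229%, 0.415%, 0.531% and 0% (0 of 87, Wilson interval up to 4.23%). For the E-box and the cAMP response element the excess at marked starts did not hold in each class. From 0.2 to 0.4 the E-box was in 6.63% of marked and 6.65% of unmarked starts, and the cAMP response element in 0.552% and 0.593%. At 0.6 and over the latter was in 2.91% (1.54 to 5.44) of marked and 9.20% (8 of 87, 4.73 to 17.1) of unmarked starts. The other 3 motifs hold no CpG. The CCAAT box (CCAAT) was in 37.6% (35.4 to 39.8) of marked and 35.8% (34.4 to 37.2) of unmarked starts, with 37.4% of all promoters. Within CpG classes it went both ways. From 0.2 to 0.4 it was in 41.0% (37.5 to 44.6) of marked and 34.1% (31.9 to 36.4) of unmarked starts. At 0.6 and over it was in 31.4% (26.5 to 36.8) and 43.7% (33.7 to 54.1). The octamer (ATGCAAAT), bound by the POU factors that include Oct4, was in 2.24% (1.66 to 3.01) against 2.12% (1.75 to 2.57), with 1.74% of all promoters. From the lowest to the highest CpG class the octamer was in 1.18%, 1.66%, 2.38% and 4.85% of marked starts. Unmarked starts had 1.95%, 2.14%, 3.18% and 2.30%. The TATA box (TATAAA) was rarer at marked starts, 14.1% (12.6 to 15.8) against 18.5% (17.4 to 19.7), with 13.6% of all promoters.

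The kind of gene model also went with the share of starts marked. Host genes of small nucleolar RNAs, with Dancr counted among them, were marked at 6 of 6 isolated starts (61 to 100%). Host genes of microRNAs were marked at 7 of 10 (39.7 to 89.2%), beside 28.1% of all isolated starts. RIKEN clones of adult testis libraries, recognised by the prefix of the symbol, were marked at 198 of 531 starts (37.3%, 33.3 to 41.5). Other RIKEN clones were marked at 159 of 398 (39.9%, 35.3 to 44.8), and the intervals of both kinds of clone overlap. Computed gene predictions with a Gm symbol were marked at 1461 of 5617 (26.0%, 24.9 to 27.2), and antisense or opposite-strand genes at 22 of 72 (30.6%, 21.1 to 42.0).

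**Figure D5:**
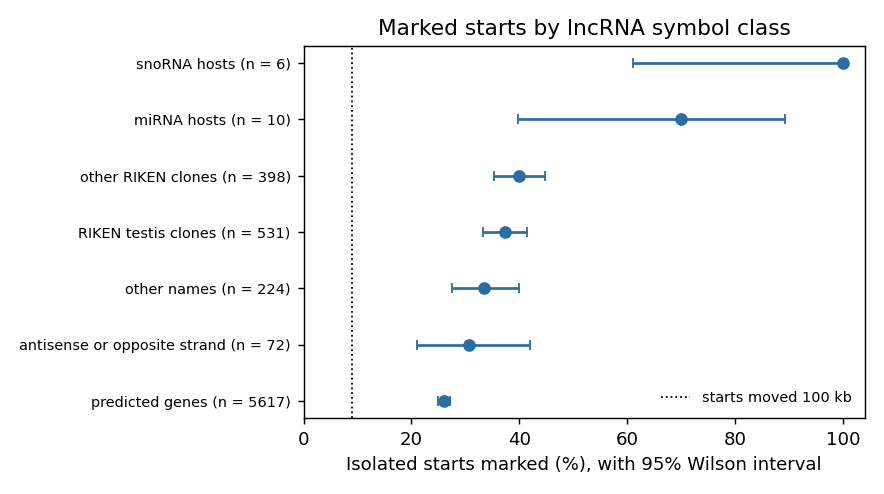
Share of isolated lncRNA starts with a peak within 1 kb by class of gene symbol, with 95% Wilson intervals and the number of starts, and a dotted line at 8.99% for starts moved by 100 kb. Predicted genes are lowest at 26.0%, and the small classes of host genes are highest with wide intervals.

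Within CpG classes the shares of testis clones and other clones were compared. Testis clones were marked in 15.0%, 45.8% (38.4 to 53.4), 81.0% (69.6 to 88.8) and 93.8% from the lowest to the highest class. Other RIKEN clones had 19.4%, 31.5% (24.9 to 39.0), 64.0% (50.1 to 75.9) and 90.2%. Testis clones were higher in the 3 classes from a ratio of 0.2 upward and lower in the poorest class, but the intervals overlap in each class, with 166 and 63 testis clones against 165 and 50 others in the middle classes. Predicted genes had 13.4%, 28.6%, 48.8% and 72.5%.

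Genes with a known RefSeq transcript were marked more often than genes with only a model transcript. Over genes the shares were 39.0% (983 of 2520, 37.1 to 40.9) and 29.4% (2351 of 8010, 28.4 to 30.4). At starts by CpG class, known genes had 16.3%, 37.5%, 69.8% and 92.3% (87.2 to 95.4), against 13.2%, 27.6%, 45.7% and 67.5% (61.2 to 73.3) for model genes. At known genes in the richest class the share thus came near that of protein-coding starts.

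The share of starts marked also differed with position relative to other genes. Starts inside a protein-coding gene were marked in 20.5% (18.6 to 22.4), against 8.70% after moving, and starts outside in 30.6% (29.4 to 31.9), against 9.07%. The share went from 32.5% (29.1 to 36.1) at 6 to 10 kb from a protein-coding gene end to 25.6% (23.7 to 27.6) beyond 100 kb. Starts with another lncRNA start within 1 kb in the divergent direction were marked in 58 of 137 cases (42.3%, 34.4 to 50.7), against 27.8% (26.8 to 28.9) of the others. Below a CpG ratio of 0.2 this difference was absent, at 13.2% (7 of 53) against 13.9%. Genes under 2 kb had 35.5% (31.8 to 39.4) and those of 2 to 10 kb 26.0% (24.5 to 27.7). Those of 10 to 50 kb had 28.0% (26.4 to 29.8) and those over 50 kb 31.1% (27.4 to 35.0), so the share did not fall steadily with length.

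Imprinted noncoding RNA genes are known for being expressed from 1 parental allele. Of the 8 with an isolated end, 5 were marked (62.5%, 30.6 to 86.3). That interval holds the 31.7% of all isolated lncRNA genes. The median of the highest fold at the marked genes was 5.67, against 7.24 (7.12 to 7.38) over all 3334 marked lncRNA genes. Kcnq1ot1, an antisense RNA that silences its imprinted cluster, had 1 peak of 2161 bp over its start with 50 fragments and a fold of 5.67 (4.24 to 7.44). Airn, the antisense RNA of the Igf2r cluster, had 2 peaks at its start, of 1142 bp and 543 bp, with 42 and 39 fragments and folds of 6.15 and 5.72.

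Meg3 and H19 had narrower single peaks. Meg3 had 1 peak of 315 bp with 34 fragments and a fold of 3.12 (2.19 to 4.33) over a background of 10.2. H19 had 3 peaks of 226 to 527 bp, with 14 to 41 fragments and folds of 3.04 to 8.62, and its strand was not in the table used. These 3 peaks lay less than 1000 bp apart, so the joining rule for domains merges them into 1 wider stretch. Peg13 had 1 peak of 2198 bp with 47 fragments and a fold of 5.34 (3.95 to 7.06), and no other peak within 100 kb. Mirg, a host of microRNAs in the Meg3 domain, was unmarked at both ends. Rian and Snhg14 were unmarked as well, but only their 3′ ends were isolated, so nothing is said of their starts. Parental alleles are not distinguished in these data.

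In a mixed list of nuclear body, telomere and widely expressed lncRNAs, all 4 isolated starts were marked (Oip5os1, Dancr, Miat and Malat1, 51 to 100%). Of 7 genes, 5 were marked at an isolated end (35.9 to 91.8%). These wide intervals stand beside 28.1% of all isolated starts and 31.7% of all isolated genes. Oip5os1, which directs the decay of a microRNA, had a peak of 1356 bp with 45 fragments and a fold of 7.24 (5.32 to 9.63). Malat1, an abundant RNA of nuclear speckles, had peaks of 946 bp and 158 bp with 32 and 19 fragments and folds of 4.56 and 2.77. Norad, which binds Pumilio proteins, had peaks of 1076 bp and 568 bp with folds of 7.78 and 4.13, and its strand was not in the table. Dancr had peaks of 745 bp and 372 bp with 40 and 36 fragments. Neat1, the RNA scaffold of paraspeckles, was unmarked at its isolated annotated ends, and Tug1 was unmarked at its 3′ end, the only isolated one.

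Host genes of small nucleolar RNAs, which guide the modification of ribosomal RNA, had regular single peaks. All 5 isolated starts (56.6 to 100%) were marked and 6 of 7 genes (48.7 to 97.4%), with a median fold of 7.61. These stand beside 28.1% of all isolated starts and 31.7% of all isolated genes. The median over all marked lncRNA genes was 7.24. Snhg11 had a peak of 1419 bp with 55 fragments and a fold of 8.66 (6.56 to 11.2), and Snhg15 had 1467 bp, 49 fragments and 8.78 (6.54 to 11.6). Snhg17, Snhg5 and Snhg20 had widths of 1621, 1350 and 1178 bp and folds of 7.14, 6.68 and 5.54. Snhg4, of unknown strand, had 1128 bp and a fold of 8.08. All 6 peaks were over 1 kb wide, as were 28.7% (27.4 to 30.1) of all members. The 5 isolated starts had CpG ratios of 0.779 to 1.26, all in the richest CpG class. In that class 78.0% of all lncRNA starts were marked, and 56.6% of the marked ones had a peak of at least 1 kb. Whether these hosts differ from other CpG-rich starts was not tested. Snhg14 was the unmarked gene, with only its 3′ end isolated.

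Host genes of microRNAs differed widely among themselves. Of 11 isolated starts 7 were marked (35.4 to 84.8%), and 8 of 14 genes at any isolated end (32.6 to 78.6%). These wide intervals stand beside 28.1% of all isolated starts and 31.7% of all isolated genes. The median fold was 6.10, against 7.24 over all marked lncRNA genes. Beside Mir100hg, Mir99ahg had 1 peak of 1142 bp with 41 fragments and a fold of 9.52 (6.89 to 12.8), and Mir1a-1hg, a host of muscle microRNAs, had a peak of 929 bp with 56 fragments and 9.51 (7.23 to 12.3). These 3 lay over backgrounds of 3.10 to 4.99 fragments.

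Other host genes had folds below the members' median at their starts. Mirc35hg had 3 peaks of 158 to 210 bp with 39 to 42 fragments and folds of 2.07 to 2.32, over backgrounds of 16.7 to 18.3. Mir9-3hg, a host of a neural microRNA, had 2 narrow peaks at its start with folds of 2.94 and 2.91 and a peak of 1668 bp beyond its 3′ end with 54 fragments and a fold of 7.17. Mir22hg had 3 peaks at its start with folds of 3.05 to 5.02, and Mir670hg had 2 with 20 and 17 fragments. Dleu2, Mir17hg, Mir205hg and Mir217hg were unmarked at isolated starts. Of these, Dleu2 had a ratio of 0.856 and Mir217hg one of 0.0796, so unmarked host genes were found at both ends of the CpG range.

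Developmental lncRNAs were marked in 4 of 18 genes (22.2%, 9.0 to 45.2), an interval that holds the 31.7% of all isolated lncRNA genes. Only 3 of their starts were isolated, and 2 of these were marked. Halr1, beside the HoxA cluster, had peaks of 1522 bp and 288 bp with 33 and 25 fragments and folds of 5.60 and 4.28. Pantr2 had a peak of 1419 bp with 38 fragments and a fold of 4.65 (3.33 to 6.34). Sox2ot, in which the Sox2 gene lies, had a peak of 668 bp with 28 fragments and 7.51 (5.08 to 10.7), and Zeb2os had 2 peaks with folds of 2.71 and 2.47, both at genes of unknown strand. Nkx2-2os was the unmarked start. Dlx4os, Dlx6os1, Fendrr, Gata6os and Hotair were among the 14 unmarked genes, and Dlx4os, Dlx6os1 and Fendrr had only a 3′ end that was isolated.

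Pluripotency-associated lncRNAs, named for their expression in embryonic stem cells, were marked at 6 of 11 isolated starts (54.5%, 28.0 to 78.7) and in 8 of 17 genes (47.1%, 26.2 to 69.0). These wide intervals stand beside 28.1% of all isolated starts and 31.7% of all isolated genes. The median fold over the 8 genes was 8.34, beside 7.24 over all marked lncRNA genes. Platr10 had a peak of 1042 bp with 60 fragments and a fold of 11.8 (9.08 to 15.2), Platr22 one of 931 bp with 47 fragments and 10.6 (7.83 to 14.0), and Platr27 one of 1002 bp with 48 fragments and 10.2 (7.57 to 13.4). Platr3 had 825 bp, 38 fragments and a fold of 9.90 (7.08 to 13.5). Platr10 and Platr3 had CpG ratios of 0.0604 and 0.120, in the class where 13.9% of starts were marked. Platr5, Platr30 and Platr7, with ratios of 0.107, 0.133 and 0, were unmarked at isolated starts in the same class.

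Other genes of this list had weaker or other peaks. Platr4 had a peak of 1085 bp with 52 fragments and a fold of 6.79, and Platr14 one of 357 bp with 38 and 5.58. Tunar, known for a role in neural differentiation, had a wide peak of 1936 bp with 44 fragments and a low fold of 3.89 (2.85 to 5.19) over a background of 10.6. Lncenc1, an RNA of naive embryonic stem cells, had 3 peaks of 165 to 412 bp with 19 to 28 fragments and folds of 3.13 to 4.54. Platr26 and Platr6 were the other unmarked isolated starts.

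Of the 12 peaks of highest fold, 11 lay at predicted genes, which make up 2616 of the 3334 marked genes. The highest was at the start of Gm5149, 344 kb from the nearest protein-coding gene end, with 60 fragments over a background of 2.5, a width of 772 bp and a fold of 17.4 (13.4 to 22.4). Gm51421 followed with 52 fragments and 16.8 (12.7 to 22.0), Gm46962 with 62 and 16.0 (12.3 to 20.4), 4933424G05Rik with 51 and 15.6 (11.7 to 20.4), and Gm41278 with 77 and 15.5 (12.3 to 19.3). Gm41238, Gm17215, Gm53063, Gm34182, Gm26671, Gm13572 and Gm32705 lay between 13.9 and 15.0. The intervals of all 12 overlap, so their order is within counting error. Their widths were 555 to 913 bp, and none lay in a wide domain.

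The peaks of highest pileup were of another kind. At the 3′ end of AY036118 on chromosome 17, 2 peaks had 135 (113 to 160) and 115 (94.9 to 138) fragments, over backgrounds of 65.1 and 66.8, with folds of only 2.06 and 1.71. Both also lay within 1 kb of Rn18s-rs5, a ribosomal RNA-like pseudogene, and belonged to a domain of 5559 bp with 5 peaks. On chromosome 6, Gm52861 had peaks of 128 and 112 fragments over backgrounds of 53.4 and 53.9, and Gm52862 had 110 and 90. These 4 had 51 to 53 other peaks within 100 kb, against 4 to 18 at the 12 peaks of highest fold. No filter for sequence in many copies was applied here, and its part in these pileups was not tested.

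Other high pileups came with higher folds. LOC115490388 had a peak of 1904 bp with 114 fragments and a fold of 6.18 (5.11 to 7.42), Gm5376 one of 871 bp with 109 and 8.08, Gm14403 one of 1402 bp with 98 and 6.55, and Gm52033 one of 1186 bp with 88 and 8.15. All 4 had backgrounds of 9.92 to 17.6 fragments, above the upper quartile of 5.62 among members.

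The widest member peaks had folds below the median. The widest, 2446 bp, lay over the start of Miat, an RNA of neurons and other cells, with 43 fragments and a fold of 4.87 (3.56 to 6.53). A730013G03Rik followed with 2329 bp, A230028O05Rik with 2287, LOC115486533 with 2276, Gm14329 with 2207, Peg13 with 2198, 1700030C10Rik with 2183, Kcnq1ot1 with 2161, Gm38450 with 2127 and Gm14486 with 2093. Their folds were 4.50 to 6.04, against the median of 6.46, and their pileups 35 to 50 fragments. Each was by itself wider than the limit of 2002 bp, so all 10 were in wide domains by the way they were chosen. Of the 10, 2 were at the imprinted genes Peg13 and Kcnq1ot1.

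Other wide domains were built of 2 to 6 peaks. The domain at Rab10os held 6 peaks over 3552 bp with folds of 2.42 to 4.14, and that at 3110006O06Rik held 5 over 3518 bp with 2.77 to 3.78. Gm16863, Gm51556, Gm52500, Gm46091 and AA387883 had domains of 3336 to 3504 bp with 2 to 4 peaks. The highest fold within these 5 domains was 5.13, at Gm46091.

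A minority of members lay at other small genes as well. Within 1 kb of a transfer RNA gene end were 35 members, with a median pileup of 40 fragments and a median fold of 4.88 over a background of 8.34. The 14 at microRNA genes had 39 fragments and a fold of 4.83, and the 15 at small nucleolar RNA genes had 38 and 6.95. The 102 members at pseudogenes, transcribed ones included, had 35 fragments and a fold of 7.14. The remaining 4111 had 33 fragments and a fold of 6.46, the same as all members.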

How the data were processed

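The tools in the submitters' processing notes are MACS2 2.1.0, deepTools 3.5.1, Bowtie2 2.5.0, Trim Galore, SAMtools 1.16.1 and bedtools 2.27.1, and the builds are mm10 and sacCer3. Roles of the tools, and settings, were not given in the sources used here. As deposited by the authors, the data are 1 list of peaks from the H3K4me3 library, with a fold enrichment (a ratio) at the summit. The deposited −log10 p and −log10 q, a score and the summit position accompany each peak. These values are the authors' and describe peaks within the list only.

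The whole-number pileup and the background were solved from the fold and the −log10 p for 135053 of 135064 peaks, and for all members. This took the fold to be (pileup + 1)/(background + 1) and p to be a Poisson upper tail. Background values above the smallest, 2.11 fragments, lay on steps of 0.0158, which is the smallest peak width over a 10 kb window with no factor for a second library. The fold was therefore read against surroundings in the same library. Peak names carry the letters IgG, and whether IgG entered the calling cannot be told from the list.

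Gene ends came from the RefSeq table and strand from the promoter table, both of GRCm38.p6, matched by gene ID. Printed orientation was checked on 613 overlapping promoter pairs of opposite strand, and 613 matched. Wilson, exact Poisson and order-statistic intervals (95%) cover counting error only, since reads carry no stated molecular identifiers. With 1 library there was no test and no paired analysis. Members, gene lists and the rule for named genes were chosen with earlier results of these data known. The rule named the 12 members of highest fold, the 10 of highest pileup, the 10 widest, the listed genes with a peak and up to 5 unmarked genes per list. A few further genes were picked with their values in view. On simulated data 200 of 200 planted genes among 10530 were called, with 0 extra, and 5000 of 5000 pileups were recovered. The planted peaks lay well inside the windows and the others well outside. The simulated pileups were made with the same formulas that were solved. These runs thus check the code and cannot check the assumptions behind it. Software was scipy 1.17.1, pandas 2.3.3, matplotlib 3.10.9 and numpy 2.4.6 under Python 3.11.15.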

Additional observations from a re-analysis of the deposited data

How the results depend on the processing

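Of 102 values under alternatives, 46 stayed within 1.5 times the count or within the 95% interval of the value reported. The other 56 moved outside it. A change of direction was defined only for the ratio to moved ends, as a value below 1. It was seen in 0 of the 15 values of that ratio. With a window of 500 bp the share of isolated lncRNA genes marked was 26.4% (31.7% with 1000 bp), the ratio to moved ends 2.69, the median fold 6.71, the pileup 34, the width 790 bp and the share of members at a start 74.9%. With 2500 bp these were 42.0%, 1.56, 6.30, a pileup of 32, 671 bp and 67.6%. A distance to protein-coding gene ends of 2 kb gave a fold of 6.25 and 11.5% in wide domains, and one of 10 kb a fold of 6.63. With a −log10 q of at least 5 the fold was 6.70, the pileup 34 and the width 765 bp. With at least 10 the share marked was 26.6%, the ratio 2.34, the fold 7.42, the pileup 37, the width 886 bp and the wide share 7.33%. With a fold of at least 5 the share marked was 26.5%, the fold 7.48, the pileup 35, the width 857 bp and the wide share 4.79%. With a pileup of at least 20 the share marked was 27.9%, the ratio 2.36, the fold 7.07, the pileup 35, the width 828 bp, the wide share 11.8% and the start share 73.7%. With the summit inside the window the share marked was 27.7%, the ratio 2.41, the width 696 bp and the start share 73.6%. With 200 bp shared the values were 28.4%, 2.37, a fold of 6.79, a pileup of 34 and 800 bp. Without predicted genes 953 members remained, with 36% marked, a ratio of 2.59, a fold of 6.16, a pileup of 35, 789 bp, 14.2% wide and 80.1% at a start. Without other noncoding gene ends 30.4% were marked, and with starts alone 28.1%. Moving by 50 kb gave a ratio of 1.98, and a join gap of 500 bp gave 8.42% wide. Stricter peak thresholds select on the fold or pileup they then raise, and for the other shifts the cause was not tested. No paired analysis was possible because there is 1 H3K4me3 library. Its depth is unknown here, so unmarked starts include any whose signal lay below what this depth could call. No IgG value and no filter for sequence in many copies was used here.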
